A study of Mus musculus with 4 samples.

Results

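The genes described here are 10 members of the class 3 semaphorin pathway, out of 32285 genes in the deposited tables: the secreted ligands Sema3a, Sema3c, Sema3d, Sema3e and Sema3f, the co-receptors Nrp1 and Nrp2, and the signalling receptors Plxna2, Plxna4 and Plxnd1. They were picked by gene symbol, with earlier results of these data known, and each symbol was found on 1 row. Class 3 semaphorins are secreted guidance cues that steer growing axons, migrating neural crest cells and blood vessels. Most of them bind a neuropilin, which has no signalling domain of its own and passes the signal on through an A-type plexin, whereas Sema3e can bind Plxnd1 without a neuropilin. Neuropilins also bind vascular endothelial growth factors on blood vessels, and in the nose semaphorin signalling is known for guiding olfactory and vomeronasal axons and the GnRH neurons that migrate along them.

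The data are droplet-based single-cell RNA counts of the whole nose, dissected from mice at embryonic day 14.5, in 2 control and 2 mutant libraries. The sample labels give the controls as C57Bl/6J, whereas the series design gives them as yap flox/flox;taz flox/flox without Cre, so whether the controls carry floxed alleles is not settled. Mutant libraries are labelled Tg(Sox10-cre)1Wdr with Yapflox and Tazflox on C57Bl/6J, and the series design gives Sox10cre;yap flox/WT;taz flox/flox, in which 1 wild-type Yap allele remains. The Cre is driven by Sox10, a gene of neural crest cells and their glia, so recombination is directed to that lineage and not to the whole nose. The labels do not tie a library to a litter or an embryo's sex, so p-values measure only the spread between these libraries.

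After leaving out barcodes with under 500 detected genes or over 10% mitochondrial UMIs (a UMI marks 1 captured RNA molecule), 13739 cells remained, between 2474 and 4195 per library. Median depth per library was between 5282 and 8549 UMIs, lowest in mutant 2, and pairs of libraries shared between 4 and 8 cell barcodes. Cells were put into classes by the number of distinct markers detected out of 10 per class, and 12 classes held at least 10 cells in every library. Their 10 leading genes held between 2 and 9 of the class's own markers, and at most 1 marker of another class, which came from the related neuron and olfactory epithelium lists. Classes are called by the name of their marker list, and all of these names are to be read as "-like". Cells sitting exactly at the limit of the gate made up 37.4% of osteoblast-gated, 23.6% of chondrocyte-gated and 18.8% of mural-gated cells, and 0.84% of glia. Yap1 was at 56.1 and 66.2 CPM in control glia and 45.5 and 55.0 CPM in mutant glia. Wwtr1, the gene of Taz, went the other way, at 219 and 208 CPM in control glia and 241 and 330 CPM in mutant glia. Sox10 was detected in glia of all 4 libraries. A 3-prime count can include transcripts without the deleted exons and does not check the deletion.

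The question put first was which cells are sources of the ligands and which hold the receptors. Levels are given as CPM (the gene's UMIs summed over the cells of a class in a library, scaled to that sum over all genes), in the order control 1, control 2, mutant 1, mutant 2. Each class with at least 20 cells in every library (8 classes) was also tested against the mean of the other 7 in 1 edgeR fit with the library as a block. Of the 80 member-class pairs, 36 were higher and 24 lower than the other classes at an adjusted p under 0.05, 60 in all, against a background of 22.7% of gene-class pairs called higher, 16.6% called lower and 39.3% called either way over all genes. A fit of all 12 classes, made after the first results were seen, called 83 of 120 pairs, beside 37.0%. Some ligands were high in each of mesenchyme, cartilage, bone, skin epithelium and glia, and all were near 0 in macrophages. Which ligands were high differed by class. Glia had the lowest mean of Sema3a, 3.85 CPM, and osteoblasts had means of 15.9 CPM of Sema3c and 5.60 CPM of Sema3e. Neuropilins and Plxnd1 were high in endothelial cells, and Plxna4 in glia and neurons.

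**Figure D1:**
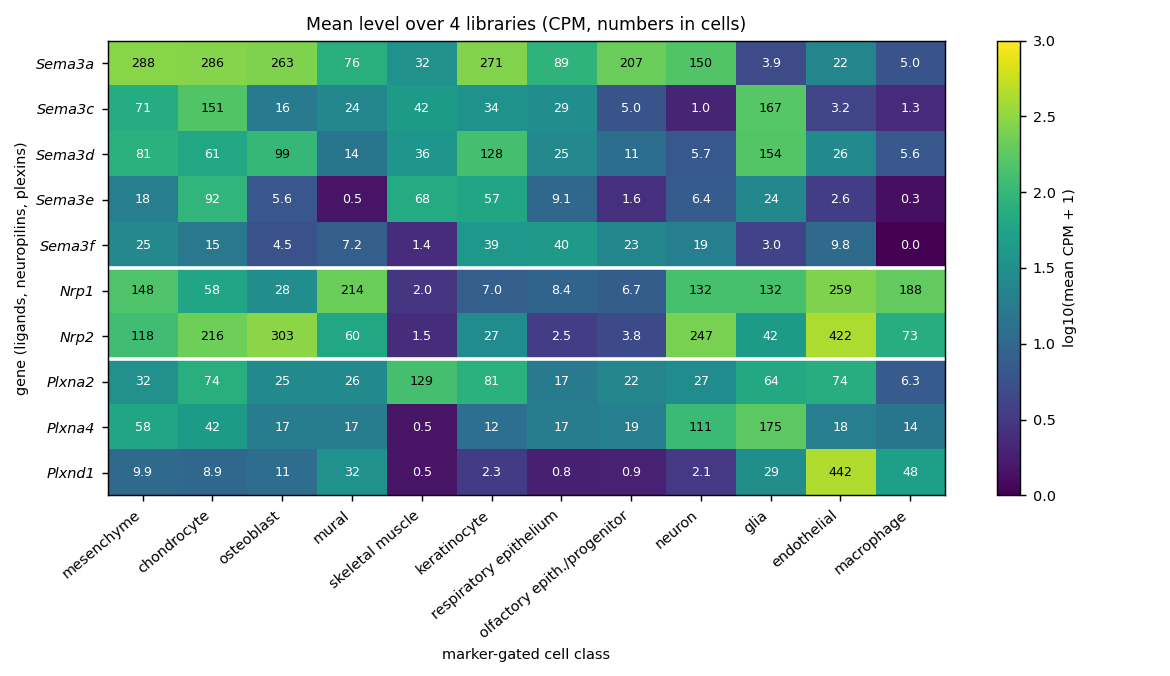
Mean CPM over the 4 libraries for each of the 10 members (rows, grouped as ligands, neuropilins and plexins) in the 12 marker-gated classes (columns). The colour is log10(mean CPM + 1) and the printed number is the mean CPM; the macrophage column holds at most 5.58 CPM of any ligand, and the endothelial column holds the highest value of Nrp1, Nrp2 and Plxnd1.

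Sema3a, the founding class 3 ligand and a repellent for many sensory axons (chromosome 5, 13125414 to 13602565, GRCm38, plus strand), was at 298, 320, 253 and 283 CPM in mesenchyme. Chondrocytes had 248, 273, 336 and 285 CPM, keratinocytes 241, 273, 318 and 252, and osteoblasts 319, 257, 245 and 230. These 4 classes overlapped each other in every neighbouring pair, so no order among them stands beyond their spread. Their differences from the other classes ranged from 2.37 ± 0.17 in keratinocytes to 2.43 ± 0.16 in mesenchyme on the log2 scale (SE, n = 4 libraries). Olfactory epithelium came next at 206, 214, 221 and 188 CPM, below osteoblasts without overlap. Neurons were uneven, at 200, 51.0, 204 and 147 CPM, where the low value of control 2 rests on 11 cells. In glia 6 UMIs of Sema3a were counted in all, 5 of them in control 1, and in macrophages 14. Endothelial cells were also lower than the other classes, by a log2 difference of -1.80 ± 0.35 (edgeR adjusted p 7.3e-05), a call that was lost with doublets removed.

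Sema3c, a ligand known for guiding neural crest cells in the outflow tract (chromosome 5, 17574281 to 17730268, plus strand), had its highest levels in glia and cartilage. Glia had 125, 119, 182 and 241 CPM and chondrocytes 143, 196, 151 and 114 CPM, and the classes overlapped. Mesenchyme followed at 64.5, 102, 56.6 and 60.4 CPM, with no overlap with chondrocytes. Against the other classes the log2 difference was 3.02 ± 0.27 in glia, 2.92 ± 0.19 in chondrocytes and 1.68 ± 0.19 in mesenchyme. Neurons and macrophages held 2 and 3 UMIs in all, so glia were among the highest and neurons among the lowest classes for this ligand. Endothelial cells held 13 UMIs.

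Sema3d, which acts on endothelial and neural crest cells in other settings (chromosome 5, 12383385 to 12588948, plus strand), had its highest means in glia and keratinocytes, which overlapped. Mesenchyme, with 9431 of the 13739 retained cells, held 62.9% of its UMIs. Glia had 115, 119, 198 and 186 CPM, and keratinocytes 142, 112, 121 and 138. Osteoblasts had 97.3, 106, 113 and 80.0 CPM and mesenchyme 83.2, 78.0, 78.2 and 86.2, and neighbours in this order overlapped down to mesenchyme. The log2 difference from the other classes was 1.87 ± 0.25 in glia, 1.70 ± 0.17 in keratinocytes, 1.33 ± 0.19 in osteoblasts and 0.89 ± 0.16 in mesenchyme. It was -3.09 ± 0.42 in macrophages and -2.10 ± 0.40 in mural cells, and the mural call was lost with doublets removed.

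Sema3e, the ligand of Plxnd1 (chromosome 5, 14025276 to 14256689, plus strand), had its highest means in chondrocytes, skeletal muscle and keratinocytes. Mesenchyme, with 9431 of the 13739 retained cells, held 44.8% of its UMIs. Chondrocytes had 76.5, 57.6, 152 and 83.4 CPM, skeletal muscle 77.7, 81.0, 56.4 and 58.7, and keratinocytes 54.6, 46.6, 69.6 and 58.6. Glia came after them at 25.5, 22.1, 13.4 and 34.4 CPM, without overlap with keratinocytes. The log2 difference was 4.05 ± 0.24 in chondrocytes, 3.37 ± 0.24 in keratinocytes and 1.45 ± 0.29 in mesenchyme. Endothelial cells held 8 UMIs of Sema3e in all, and mural cells and macrophages 1 each, classes in which Plxnd1, its receptor, had its 3 highest levels. Glia, whose Plxnd1 overlapped with that of mural cells, were called higher for Sema3e, by 1.70 ± 0.55 (edgeR adjusted p 0.0242). That call was lost in 3 settings. Sema3a, Sema3c, Sema3d and Sema3e lie on the same strand of chromosome 5 within 5.35 Mb.

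Sema3f, a ligand that binds Nrp2 with preference (chromosome 9, 107681500 to 107710475, minus strand), had its highest means in respiratory epithelium and keratinocytes, which overlapped. Mesenchyme, with 9431 of the 13739 retained cells, held 64.1% of the Sema3f UMIs. Respiratory epithelium had 27.9, 69.8, 29.6 and 31.7 CPM, where control 2 rests on 15 cells, and keratinocytes 35.5, 44.3, 40.8 and 36.0 CPM. Mesenchyme had 21.3, 25.6, 25.5 and 26.3 CPM, below keratinocytes in all 4 libraries, and olfactory epithelium 21.2, 28.9, 21.0 and 19.98 CPM. No UMI of Sema3f was found in 270 macrophages. The log2 difference was 3.28 ± 0.20 in keratinocytes and 2.47 ± 0.20 in mesenchyme. A call in endothelial cells, at 1.06 ± 0.42 with an edgeR adjusted p of 0.0479, rested on 33 UMIs and was lost in 7 of the alternative settings.

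**Figure D2:**
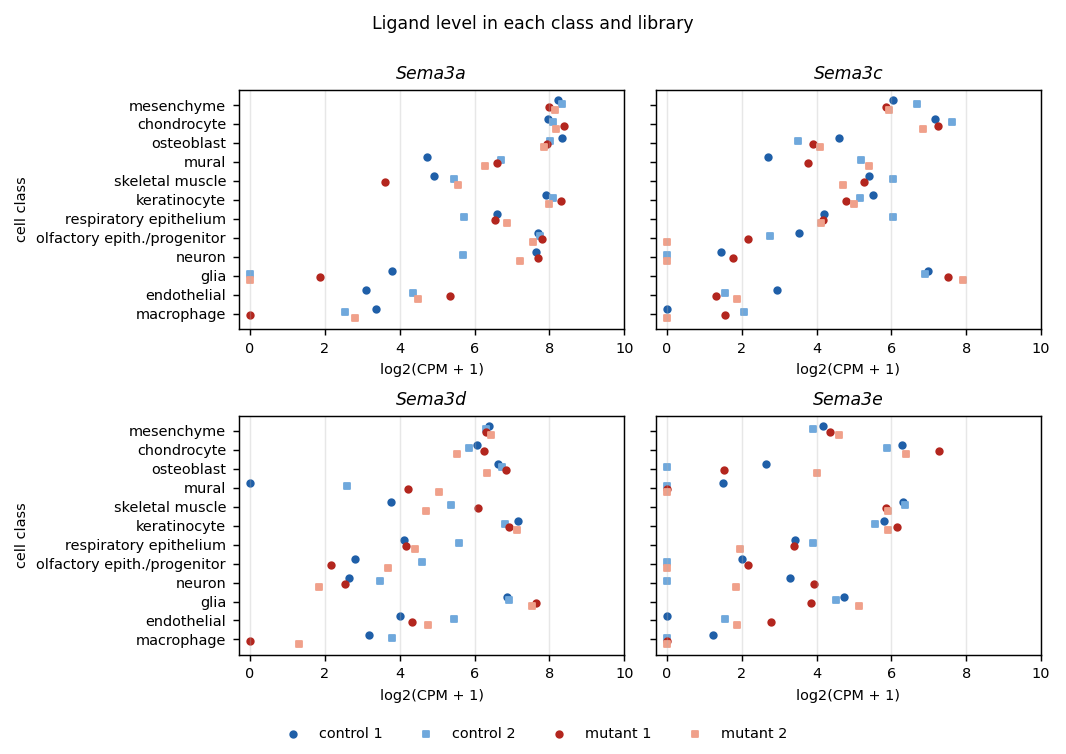
Level of 4 ligands in each class, as log2(CPM + 1), with 1 point per library (circles, control 1 and mutant 1; squares, control 2 and mutant 2). The points of Sema3a lie close together in mesenchyme, cartilage, bone and keratinocytes, while Sema3c and Sema3d have their rightmost points in glia.

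Nrp1, co-receptor of Sema3a and of vascular endothelial growth factor A (chromosome 8, 128358604 to 128503363, plus strand), was at 240, 182, 349 and 266 CPM in endothelial cells. Mural cells, the pericytes and smooth muscle around vessels, had 151, 124, 239 and 341 CPM, and macrophages 183, 192, 162 and 213. Mesenchyme followed at 148, 163, 132 and 148 CPM, and glia and neurons had means of 132 ± 47.0 and 132 ± 67.8 (SD, n = 4). All neighbours in that order overlapped, down to the step from neurons to chondrocytes, which at 42.6 to 68.5 CPM lay below them in every library. Against the other classes the log2 difference was 1.90 ± 0.14 in endothelial cells, 1.61 ± 0.16 in macrophages, 1.45 ± 0.17 in mural cells and 0.87 ± 0.13 in mesenchyme. Keratinocytes were lower by a log2 difference of -4.06 ± 0.23 and osteoblasts by -1.71 ± 0.21. The lower call in chondrocytes, at -0.74 ± 0.18, turned to 0.37 when the 4 smaller classes joined the fit, 3 of which, muscle and both nasal epithelia, had means of 2.01 to 8.36 CPM.

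Nrp2, co-receptor of Sema3f and Sema3c and of the lymphatic growth factor Vegfc (chromosome 1, 62703285 to 62818695, plus strand), had its highest mean in endothelial cells at 368, 699, 318 and 303 CPM. Osteoblasts overlapped with them, at 331, 321, 260 and 298 CPM, and chondrocytes had 183, 293, 212 and 175. Bone and cartilage were thus among the classes with the most Nrp2, while their Nrp1, with means of 28.2 ± 8.41 CPM in osteoblasts and 58.0 ± 11.9 in chondrocytes (SD, n = 4), lay below that of every vascular, immune, neural and mesenchymal class. Neurons had 180, 500, 247 and 59.2 CPM, the widest range of the 12 classes for this gene, with the highest and the lowest value from 11 and 26 cells. The log2 difference from the other classes was 2.27 ± 0.14 in endothelial cells, 1.80 ± 0.14 in osteoblasts and 1.07 ± 0.15 in chondrocytes. In glia it was -1.82 ± 0.31, opposite in direction to Nrp1, which was 0.69 ± 0.21 there with an adjusted p of 0.0174 and was lost without either control. In the fit of all 12 classes the lower call of Nrp2 in glia was lost, at -0.39 ± 0.45 (edgeR adjusted p 0.665). The lower call of Nrp2 in mural cells, -0.97 ± 0.24, became 0.44 in that fit.

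Plxna2, a plexin that binds semaphorins through neuropilins and class 6 semaphorins directly (chromosome 1, 194618218 to 194816869, plus strand), had its highest mean in skeletal muscle, at 146, 138, 143 and 88.0 CPM. Keratinocytes came next and overlapped with muscle, at 60.4, 64.5, 90.0 and 109 CPM, followed by chondrocytes at 66.1, 102, 72.6 and 55.4 and endothelial cells at 71.2, 68.5, 85.7 and 70.2. Keratinocytes, chondrocytes and endothelial cells were the 3 of the 8 tested classes called higher, by log2 differences of 1.27 ± 0.16, 1.04 ± 0.19 and 1.20 ± 0.20. Keratinocytes held this plexin while their Nrp1 was 7.01 ± 2.39 and their Nrp2 27.2 ± 9.01 CPM. Macrophages were lower, at 10.7, 3.2, 3.92 and 7.4 CPM.

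Plxna4, a plexin of sensory and sympathetic axons (chromosome 6, 32144268 to 32588192, minus strand), had its highest levels in glia and neurons. Glia had 140, 190, 171 and 199 CPM and neurons, which overlapped with glia, 84.1, 153, 132 and 74.7 CPM. Mesenchyme was below neurons in all libraries, at 48.7, 62.7, 60.8 and 61.4 CPM. The log2 difference from the other classes was 2.88 ± 0.27 in glia and 1.18 ± 0.17 in mesenchyme, and in the fit of 12 classes 2.36 ± 0.30 in neurons. In skeletal muscle 1 UMI of Plxna4 was counted in 90 cells, the opposite of Plxna2.

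Plxnd1, the receptor of Sema3e on blood vessels (chromosome 6, 115954811 to 115995005, minus strand), was the member most limited to a single class. Endothelial cells had 429, 407, 439 and 494 CPM, a mean of 442 ± 37.1 (SD, n = 4). Macrophages came next at 41.4, 54.5, 64.6 and 31.1 CPM, with no overlap, followed by mural cells and glia with means of 32.1 ± 5.49 and 29.5 ± 7.96 CPM. Keratinocytes had 0.479, 0.777, 5.63 and 2.31 CPM. The endothelial difference from the other classes was 5.03 ± 0.12 on the log2 scale (edgeR adjusted p 1.1e-25), and macrophages were also higher, by 1.56 ± 0.22. Of all Plxnd1 UMIs in retained cells, 56.6% came from the 212 endothelial cells, whereas 44.8% to 75.3% of the UMIs of each other member came from the 9431 mesenchymal cells. The lower calls of Plxnd1 in mesenchyme, chondrocytes and osteoblasts became differences of 0.30, 0.15 and 0.63 in the fit of 12 classes, in which muscle and olfactory and respiratory epithelium hold 4 UMIs or fewer each.

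**Figure D3:**
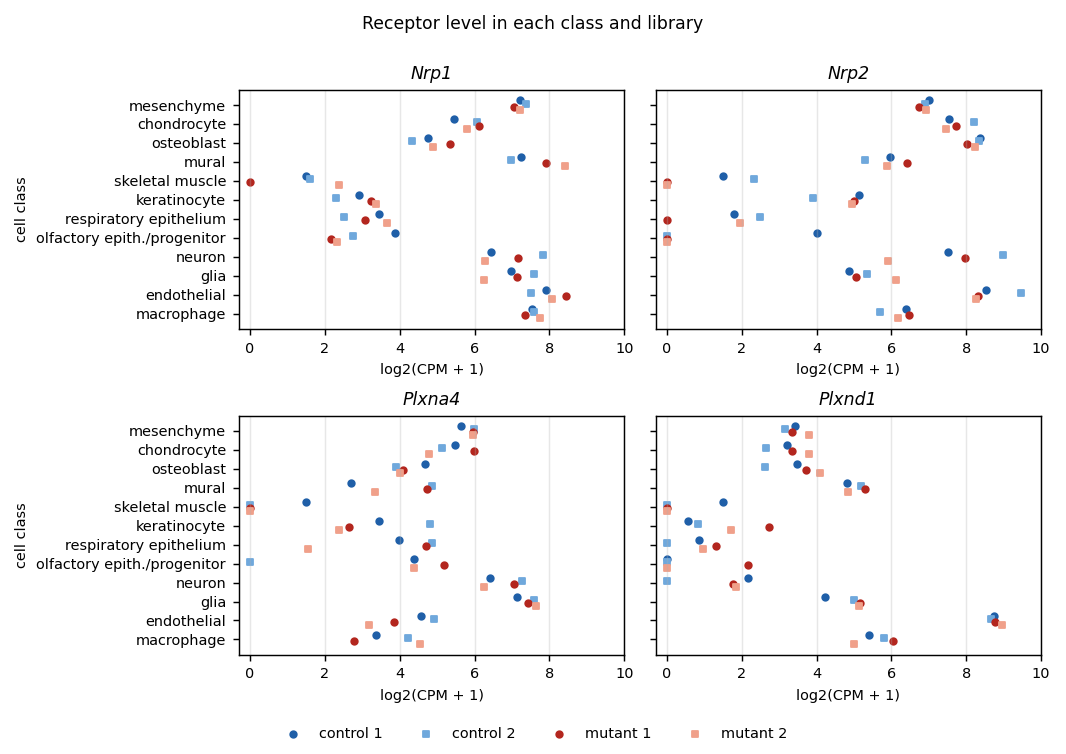
Level of both neuropilins and of Plxna4 and Plxnd1 in each class, as log2(CPM + 1), with 1 point per library. The 4 endothelial points of Plxnd1, between 407 and 494 CPM, lie far to the right of every other class, while Nrp1 is spread over endothelial, mural, macrophage, mesenchymal, glial and neuronal cells.

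The 250 bases upstream of Plxnd1 and of its ligand Sema3e are shown, since this receptor had the narrowest pattern and the mutants target Yap1 and Taz, coactivators that reach DNA through TEAD factors. The sequences are those of RefSeq on GRCm38.p6, read 5′ to 3′ on the gene's strand and ending at the base before the annotated start, chr6:115995006-115995255 on the minus strand for Plxnd1 and chr5:14025026-14025275 on the plus strand for Sema3e. Capitals mark the TEAD motif GGAATG, searched on both strands, where it appears as CATTCC.
Plxnd1: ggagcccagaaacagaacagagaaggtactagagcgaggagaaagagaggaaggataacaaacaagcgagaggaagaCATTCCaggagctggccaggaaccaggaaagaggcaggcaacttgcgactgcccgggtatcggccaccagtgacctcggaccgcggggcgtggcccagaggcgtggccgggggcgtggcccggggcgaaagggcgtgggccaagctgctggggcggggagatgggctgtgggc
Sema3e: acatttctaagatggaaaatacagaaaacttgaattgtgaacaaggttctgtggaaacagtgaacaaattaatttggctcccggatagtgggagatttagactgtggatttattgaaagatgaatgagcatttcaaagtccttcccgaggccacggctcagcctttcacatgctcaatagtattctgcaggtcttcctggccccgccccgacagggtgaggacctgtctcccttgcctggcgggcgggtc
The Plxnd1 window holds 1 match, 173 bases before the start, and the Sema3e window holds none. Promoter windows were at hand for 8 of the 10 members, and Plxnd1 was the only 1 of them with a match, while 12.6% of 32851 windows of the same length hold the motif. The windows also differ in base content, with 64.8% G and C and 16 CpG in Plxnd1 against 48.0% and 7 in Sema3e. A match describes letters only.

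Shares of cells with at least 1 UMI were compared after thinning every cell to 1500 UMIs, which left out between 36 and 55 cells per library. At that depth Plxnd1 was found in 44.8% of 203 endothelial cells (exact 95% interval 37.9% to 51.9%, counting error only) and in 0.114% of 875 keratinocytes. Without thinning, the shares were 86.8% and 2.03%, at median depths per library of 8162.5 to 17296 UMIs in endothelial cells and 6873 to 10654 in keratinocytes. Nrp1 was found in 37.4% of thinned endothelial cells, 30.8% of macrophages and 26.9% of mural cells, against 1.26% of keratinocytes. Sema3c and Sema3d were each found in 21 of 119 glia, or 17.6%, and in 0 of 260 thinned macrophages, which allows a share of cells with a UMI at that depth of up to 1.15%. Sema3e and Sema3f were likewise found in 0 thinned macrophages, and Sema3a in 1, or 0.385%. The level of free RNA in these droplets was not measured.

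Ligand and receptor were then counted in the same cell, without thinning. A neuropilin and a plexin were found together in 86.3% of endothelial cells and both neuropilins in 61.3%, the highest share of any class. Keratinocytes were the reverse, with a ligand in 83.4% of cells and a neuropilin in 18.0%. Macrophages had a ligand in 5.93% of cells and a neuropilin in 65.6%. A ligand and a neuropilin in the same cell were most frequent in osteoblasts, at 67.1%, followed by chondrocytes at 51.4%, neurons at 48.6%, glia at 42.9% and mesenchyme at 42.3%. Skeletal muscle had a ligand in 74.4% and a plexin in 76.7% of 90 cells but a neuropilin in 5.56%. These shares depend on depth, whose median was highest in muscle in every library. Medians per library ran from 8162.5 to 17296 UMIs in endothelial cells and from 8712 to 14085 in olfactory epithelium.

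Within mesenchyme the members were read again in cells with a UMI of each of 9 positional genes, groups that overlap since a cell can hold several. Sema3a was highest in cells with Pax9, a gene of tooth and palate mesenchyme, at 403, 556, 414 and 447 CPM, and in cells with Foxl2, at 456, 463, 397 and 384 CPM. Cells with Pou3f4 had 132, 109, 109 and 143 CPM, below both in every library. Sema3c ran otherwise, with 16.8, 29.5, 21.0 and 25.8 CPM in Pax9 cells against 124, 261, 139 and 107 in cells with the angiotensin receptor Agtr2. Sema3e was high in Pax9 cells (31.3 to 58.5 CPM) and in cells with the cartilage regulator Sox9 (33.9 to 44.3 CPM), and low with Pou3f4 (0 to 7.66 CPM). Plxna4 was at 103, 114, 97.6 and 99.8 CPM in cells with none of the 9 genes, above all 9 groups, and at 9.9 to 33.4 CPM with Pax9. Cells with none of the genes also had lower depth, with a median of 4047 to 5987 UMIs per library against 4944 to 8163 in mesenchyme as a whole, and its part in the Plxna4 level was not tested. Plxna2 ranged from a mean of 6.42 CPM with Pou3f4 to 50.4 with Sox9, while Plxnd1 stayed between 8.04 and 11.99 CPM in all groups.

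**Figure D4:**
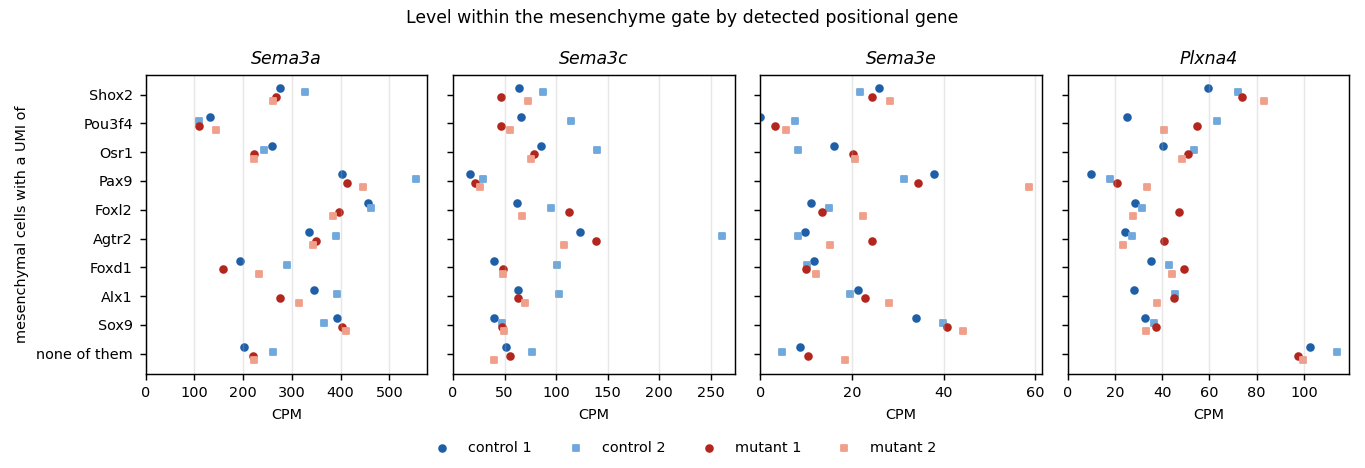
CPM of 4 members in mesenchymal cells split by a detected positional gene, with 1 point per library and groups that share cells. Sema3a has its highest points with Pax9 and Foxl2 and its lowest with Pou3f4, Sema3c its highest with Agtr2, and Plxna4 its highest in cells with none of the 9 genes.

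The genes whose levels ran most like each member were sought over the 32 class-by-library sums of the 8 tested classes, by Pearson's r of log2(CPM + 1) among 15099 genes. Points of 1 class and points of 1 library are not independent, so these values are descriptions. Plxnd1 ran with Acvrl1, an endothelial receptor of the BMP family (0.93), Msn (0.92) and Gnai2 (0.92), and Nrp1 with Rsu1 (0.93), Meox2 (0.89) and Inka1 (0.88). For the ligands, Sema3a ran with Htra1 (0.93), Nhlrc2 and Eya1, Sema3c with Ntng1 (0.92), Tafa5 and Dlgap1, Sema3d with Akap9 (0.90), Flrt3 and Slc44a1, Sema3e with Flrt1 (0.85), Mbnl2 and Ubn2, and Sema3f with Qser1 (0.90), Ssbp3 and Ly6h. Nrp2 was closest to Fmnl3 (0.86), Rgs3 and Nav1, Plxna2 to Pigp (0.85), Plekhg1 and Daam1, and Plxna4 to Adamts5 (0.85), Npy and Gm20754. Among the members themselves, Nrp1 and Plxnd1 had 0.76 and Sema3a and Sema3f 0.73. Both Plxnd1 and Nrp1 had negative values with all 5 ligands, from -0.43 to -0.59 for Plxnd1 and from -0.28 to -0.53 for Nrp1.

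The study's own comparison, control against mutant libraries, gave few differences in these genes. Of the 80 pairs of a member and a class, 62 passed the filter on low counts and were tested, and 1 passed an adjusted p of 0.05, against a background of 0.176% of gene-class pairs. The next lowest adjusted p was 0.413. An unadjusted p under 0.05 was reached by 14 of the 62 pairs, beside 6.39% of all gene-class pairs, and groups did not overlap in 28 of 62, beside 36.6%. Over all retained cells, edgeR called 0 of the 10 members and 0 of 18080 genes (background 0.0% called), with 2 members and 4.88% of genes at an unadjusted p under 0.05. Those were Nrp2, with a log2 change of -0.26 ± 0.10, and Sema3e, with 0.35 ± 0.12; in such sums fewer cells of a type and less RNA per cell cannot be told apart. Sema3c passed without control 1, at -0.86 (adjusted p 0.0128).

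The pair that passed was Nrp1 in mural cells. Its level was 151 and 124 CPM in the controls, from 83 and 49 UMIs, and 239 and 341 CPM in the mutants, from 94 and 148 UMIs. Both mutant libraries were above both controls, and the log2 change was 1.01 ± 0.24 (SE, n = 2 against 2, edgeR adjusted p 0.0407). Mural cells were also the class with the most calls over all genes, 1.9% of 6369 genes, with 0.942% higher in the mutants, and 12.2% had an unadjusted p under 0.05. Of the 176 mural cells 33 to 56 came from each library. The call was lost without control 2 (0.88, adjusted p 0.139), without mutant 2 (0.75, adjusted p 0.257) and with DESeq2 (1.00, adjusted p 0.267). Among mural cells with at most 1 endothelial marker, an alternative chosen after the result was seen, the levels were 213 and 119 against 258 and 413 CPM, and the change was 0.99 with an adjusted p of 0.290.

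Other genes moved with this difference in the mural class. Of its own markers, Vtn had 426 and 543 CPM in the control libraries against 35.5 and 32.2 in the mutants. Rgs5 had 1244 and 1176 against 909 and 712. The marker Notch3 went the other way, at 229 and 193 against 274 and 244 CPM, while Abcc9, Kcnj8 and Cspg4 overlapped. Levels of the markers Higd1b, Ndufa4l2 and Rgs4 are not given here. The smooth muscle genes Acta2 (1455 and 452 against 1909 and 2255 CPM), Tagln (636 and 295 against 911 and 990) and Myh11 (61.9 and 10.2 against 127 and 145) were higher in both mutant libraries. Myh11 is also on the mural marker list. The summed level of the 10 endothelial markers in mural cells was 233 and 183 CPM for controls against 165 and 134 for mutants, lower where Nrp1 was higher, and that of the 10 glial markers 109 and 208 against 35.5 and 46.1. The 7 stress genes summed to 1936 and 1851 against 2317 and 2821 CPM. The part of this makeup in the Nrp1 difference was not tested.

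In endothelial cells the controls had 240 and 182 CPM of Nrp1 and the mutants 349 and 266, and Nrp2 at 368 and 699 against 318 and 303. The log2 changes were 0.49 ± 0.23 and -0.79 ± 0.26, and neither passed adjustment (edgeR adjusted p 0.810 and 0.600). The summed level of 10 mesenchymal markers in endothelial cells was 312, 68.5, 276 and 565 CPM and that of 8 haemoglobin genes 4106, 13.7, 4899 and 2135 CPM, both lowest in control 2, the library with the most Nrp2, and their part in it was not tested. Leaving out control 1, so that control 2 stood alone, brought Nrp2 to -1.17 and past the threshold, and without control 2 the change was -0.29. Sema3a, at 7.54 and 19.6 against 39.9 and 21.6 CPM from 9 to 27 UMIs, and Plxna4, at 22.6 and 29.3 against 13.3 and 8.1 CPM, had changes of 1.30 ± 0.49 and -1.31 ± 0.44 that did not pass either. Plxnd1, at 429 and 407 CPM in controls and 439 and 494 in mutants, was above the controls in both mutant libraries, with a log2 change of 0.13 ± 0.20 that did not pass (edgeR adjusted p 0.982). Of the 8567 genes tested in endothelial cells, 0.0584% were called and 6.14% had an unadjusted p under 0.05.

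Glia are the class with the highest level of Sox10, the gene that drives the Cre, and they were few, 20 to 41 per library. The Cre is directed to the neural crest lineage as a whole, and which cells of the other classes carry the deletion was not tested. Sema3c was at 125 and 119 CPM in control glia and 182 and 241 in mutant glia, a log2 change of 0.69 ± 0.29. Sema3d was at 115 and 119 against 198 and 186 CPM, a change of 0.67 ± 0.28. Both ligands were higher in both mutant libraries, on 27 to 74 UMIs per library, and neither passed adjustment over the 5355 genes tested (edgeR adjusted p 0.991 for each), a class in which 0.0% of genes were called and 4.46% had an unadjusted p under 0.05. Plxna4, at 140 and 190 against 171 and 199 CPM, overlapped, and so did Nrp1, at 125 and 190 against 139 and 75.6. The 7 stress genes also differed, with sums of 1376 and 927 CPM in control glia and 2200 and 2503 in mutant glia, and the 10 glial markers summed to 16402, 4739, 16147 and 9207 CPM. Their part in the ligand levels was not tested. In simulated counts with the glial sums' depth, edgeR recovered 44 of 100 changes of 2-fold, and smaller changes were not simulated. The spread of those counts was fixed and not measured in glia, so the share recovered in the real comparison is not known.

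In mesenchyme, with 0.0126% of genes called, Sema3c had 64.5 and 102 CPM in the controls against 56.6 and 60.4 in the mutants (8.17% of genes had an unadjusted p under 0.05). The change of -0.54 ± 0.19 had an edgeR adjusted p of 0.557 and rested on control 2, without which it was -0.18, whereas without control 1 it was -0.84 and passed. Sema3a changed by -0.24 ± 0.10 and Sema3e by 0.41 ± 0.14, the latter from 17.0 and 14.04 to 19.6 and 23.1 CPM. Sema3e had the same direction in chondrocytes, at 76.5 and 57.6 against 152 and 83.4 CPM, with a change of 0.72 ± 0.27 (4.29% of genes there had an unadjusted p under 0.05) that passed only when mutant 2 was left out, at 1.12. With all 4 libraries none of these passed after the filter on low counts, and Sema3c in mesenchyme passed when that filter was left out (-0.54, edgeR adjusted p 0.000319).

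Keratinocytes gave 3 pairs at an unadjusted p under 0.05, beside 6.15% of genes there, and none past adjustment, beside 0.00867%. With no filter on low counts Plxna2 (adjusted p 0.0152) and Plxna4 (0.00133) passed. Plxna2 stood at 60.4 and 64.5 CPM in the controls against 90.0 and 109 in the mutants (log2 change 0.66 ± 0.15, edgeR adjusted p 0.489). Plxna4 was at 9.83 and 27.2 against 5.28 and 4.16 CPM, from 9 to 41 UMIs, a change of -1.81 ± 0.55, and it passed without control 1 at -2.54. Sema3c was at 44.6 and 35.0 against 26.4 and 30.9 CPM, a change of -0.53 ± 0.19. The remaining classes gave none: 0 of 8 tested members in osteoblasts and 0 of 4 in macrophages had an unadjusted p under 0.05, beside 4.1% and 5.41% of genes (0.0% and 0.028% past adjustment). Neither did any of 19 pairs in neurons, skeletal muscle and the olfactory and respiratory epithelia, beside 1.2%, 2.29%, 5.2% and 1.91% of genes, in fits made after the first results were seen.

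**Figure D5:**
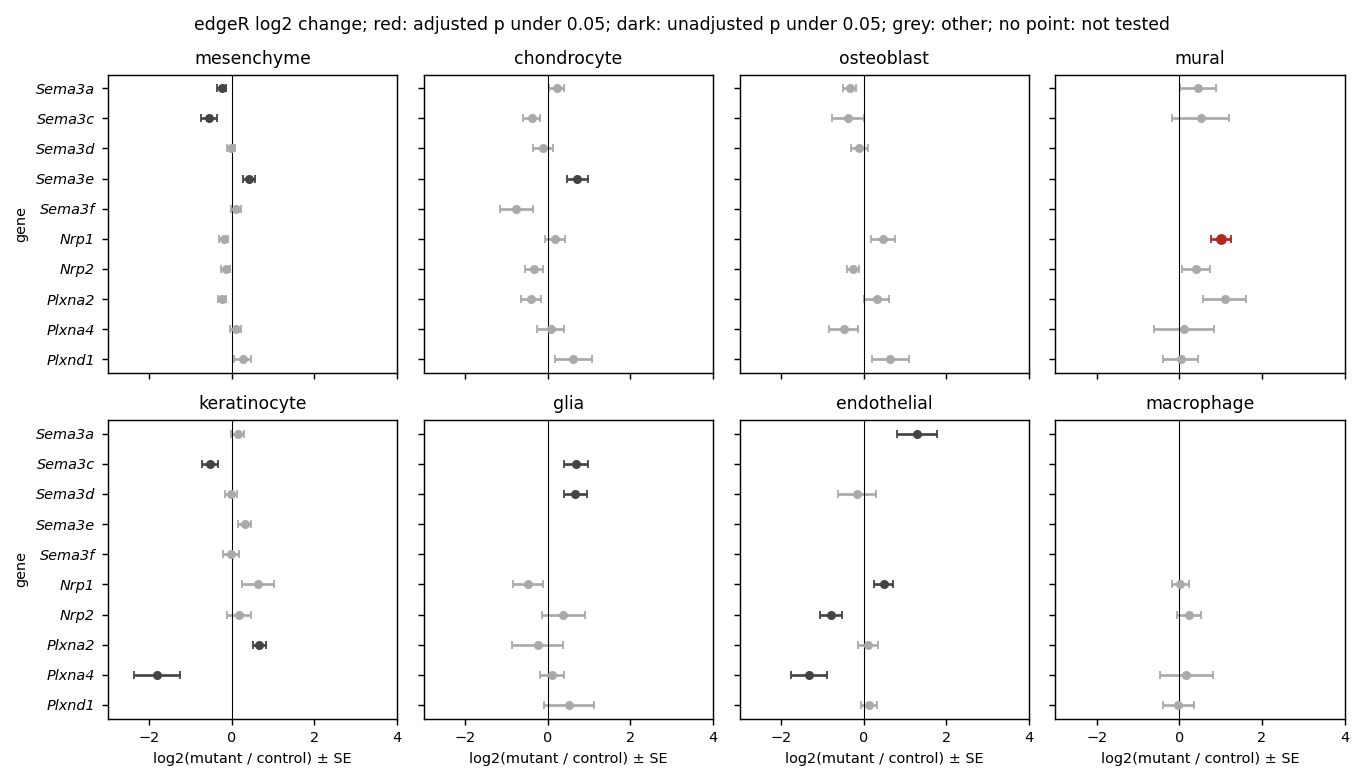
Log2 change of each tested member in mutant over control libraries with its standard error, 1 panel per class. The red point is Nrp1 in mural cells, the only pair with an edgeR adjusted p under 0.05; dark points have an unadjusted p under 0.05, and members with too few counts have no point.

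Whether the mutant effect on a member differed between classes was tested directly, over all class-by-genotype terms. No member passed (0 of 10), beside 0.111% of 11660 genes, and Sema3d and Nrp1 had an unadjusted p under 0.05, as did 6.23% of genes. The lowest adjusted p among the members was 0.504, for Sema3d. In simulated counts with a 4-fold change set in glia only, this test recovered 61 of 196 changed genes. A lack of calls therefore does not show that effects are alike between classes. The Nrp1 change in mural cells is not shown to differ from that in other classes.

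The rest of the pathway was read from a list of 47 genes: other semaphorins and plexins, adhesion partners and signal transducers, and vascular ligands and their receptors. Between classes 43 of them could be tested, and the numbers higher and lower were 16 and 9 in endothelial cells (background 22.3% and 17.4% of genes), 13 and 5 in glia (12.1% and 9.98%), 16 and 3 in mural cells (13.7% and 6.91%), 15 and 12 in keratinocytes (29.2% and 22.9%) and 9 and 20 in macrophages (28.9% and 29.6%). In mesenchyme they were 17 and 12 (30.0% and 19.0%), in osteoblasts 14 and 5 (21.3% and 11.8%) and in chondrocytes 9 and 7 (24.2% and 15.4%). Endothelial cells held the growth factor receptors Kdr and Flt1, Kdr being also a gate marker, and with them Sema6a (1.78 ± 0.13 on the log2 scale). Mesenchyme, chondrocytes and keratinocytes held the neuropilin ligand Vegfa, at 1.67 ± 0.15, 1.70 ± 0.19 and 1.60 ± 0.18, and mesenchyme also Vegfc, at 2.70 ± 0.23. In glia the adhesion molecules Chl1 (6.65 ± 0.26) and L1cam (5.71 ± 0.33), the latter a partner of Nrp1, were higher, as were Sema3g and Plxnb3. Macrophages had their own plexin and ligand, Plxnc1 (3.82 ± 0.25) and Sema4d (2.29 ± 0.29), and osteoblasts a further class 3 ligand, Sema3b (4.58 ± 0.25).

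Between control and mutant libraries 2 of 19 list genes tested in mural cells passed, beside 1.9% of 6369 genes in that class. None passed in the other classes, with 14 to 44 list genes tested and 0.0% to 0.0584% of all genes called. Over all cells none of 47 passed, beside 0.0% of genes. Sema6d, a transmembrane semaphorin, fell from 180 and 213 CPM to 55.8 and 89.8 CPM, a log2 change of -1.46 ± 0.28 (edgeR adjusted p 0.0106, n = 2 against 2). Sema5b, also a transmembrane semaphorin, rose from 41.9 and 22.9 CPM to 107 and 140 CPM, by 1.83 ± 0.34 (adjusted p 0.00851). Both were also among the 16 list genes called higher in mural cells than in the other classes, with differences of 2.53 ± 0.24 and 3.93 ± 0.38, and like Nrp1 they moved in a class whose own markers also differed. Across the 7 members tested in mural cells the median change was 0.45 and for 19 tested list genes -0.17, beside 0.0025 for all genes; in mesenchyme the same medians were -0.081, -0.052 and 0.00076.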

How the data were processed

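The authors deposited raw UMI counts per gene and cell barcode, made with Cell Ranger 8.0.1 per the file headers; the submitters' processing notes name Cell Ranger 4, Seurat 4.3.0 and mm10. The labels' protocols describe papain dissociation, freezing, 3-prime libraries and several sequencing providers. They do not assign the libraries to a provider, so a provider effect and the genotype cannot be told apart. They also speak of a further sample, not analysed here.

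Barcodes had to hold 500 detected genes or more, with mitochondrial UMIs making up 10% or less, which gave 35331450, 19767873, 29121739 and 26874057 UMIs in control 1, control 2, mutant 1 and mutant 2. The automatic threshold of Scrublet marked 0 to 2 cells per library and had not worked, so doublets stayed in, and the highest-scoring 0.8% per 1000 barcodes were removed as an alternative. A cell entered a class with at least 3 of its 10 markers and 2 more than of any other class (1 more for related classes). Chondrocytes, osteoblasts, mural cells and muscle were not set against mesenchyme. The gate was set after cell numbers and leading genes had been seen, and 954 cells stayed outside all classes. Members and lists were chosen with earlier results of these data known.

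The sums of UMIs for each class of each library went into edgeR 4.0.16 under R 4.3.3, with its quasi-likelihood test, TMM scaling, the filterByExpr minimum and Benjamini-Hochberg adjustment over all genes. A class was tested against the unweighted mean of the other classes' log levels, so that difference depends on which classes are in the fit. The SE of a log2 change was derived from the test's F value, as the change over its root. DESeq2 1.42.0 was an alternative. The control-against-mutant test was checked on simulated counts of mesenchyme and glia, and both joint tests on counts with changes set in glia; mural cells, all cells together, the fit of 12 classes and DESeq2 were not simulated. Genes are named by these rules: all 10 members, with a fold change between genotypes where the unadjusted p was under 0.05, the 5 list genes with the lowest p per class among those past the threshold, and the 3 genes most alike each member. Gene positions are those of GENCODE M21 on GRCm38.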

Additional observations from a re-analysis of the deposited data

How the results depend on the processing

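The number of member-class pairs that differed between control and mutant libraries was 1. It was 5 with no filter on low counts (Sema3c in mesenchyme, Plxna2 and Plxna4 in keratinocytes, Sema3d and Nrp1 in mural cells), 0 with DESeq2 and 0 with mural cells of at most 1 endothelial marker. Leaving out each library in turn gave 1 to 4, the 4 without control 1, but 1 without control 2 was Sema3a in mural cells (1.68, on 14 UMIs in the control left) and 1 without mutant 2 was Sema3e in chondrocytes. Over all cells the count of 0 ranged from 0 to 1 with libraries left out, and for effects that differ between classes likewise 0 to 1, with 4 where low counts were not filtered (Sema3d, Sema3a, Plxna4 and Nrp1). Over all genes and the 8 classes, 131 calls became 1697 without control 1, between 366 and 488 without each of the others and 1455 with no filter, so calls with a lone control or mutant library rest on the spread of the remaining pair. With the replicate block, Nrp1 in mural cells was still the 1 member pair called, at 1.00 with an adjusted p of 0.0164, and calls over all genes rose from 131 to 425. The difference between control 1 and control 2 and that between mutant 1 and mutant 2 had correlations over genes of -0.089 to 0.12 across classes. These values cannot tell whether same-numbered libraries share more than a number.

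The 60 class calls ranged from 54 to 59 with libraries left out and from 58 to 66 in the other settings on 8 classes, and 12 classes gave 83 of 120 pairs. Of 600 values of these calls under alternatives, 561 kept direction and side of the threshold, 34 lost the call and 5 turned, all in the fit of 12 classes: Nrp1 in chondrocytes (0.37), Nrp2 in mural cells (0.44) and Plxnd1 in chondrocytes (0.15), mesenchyme (0.30) and osteoblasts (0.63). Calls lost most often were those of Sema3f in endothelial cells (7 settings), Plxna2 in osteoblasts and Plxna4 in chondrocytes (4 each). The number of levels of at least 100 CPM was 25, and a stricter gate moved 6 of 120 levels by more than the spread between libraries, 5 of them in osteoblasts. The median share of cells with a UMI was 3.51% thinned and 17.4% unthinned. Classes of 20 to 82 cells per library limit what can be seen of members with few UMIs.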
